A study of Mus musculus with 6 samples.

Results

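The genes described here mark the main neurons of the cerebellar cortex. They were followed in RNA of whole brains from control mice and from mice with Mphosph8 deleted in the nervous system. Of 54532 gene identifiers counted, 10 were chosen by symbol from a fixed list of markers: Pcp2, Calb1, Car8, Slc1a6, Ppp1r17 and Itpr1 for Purkinje cells, and Zic1, Zic2, Barhl1 and Atoh1 for granule cells. All 10 matched 1 identifier each, and 9 had enough counts to be tested. Atoh1 did not.

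The comparison asked which transcripts differ in the brain when Mphosph8 is removed from the nervous system. Its product MPP8 is a subunit of HUSH, a complex that represses transcription from chromatin carrying trimethylated lysine 9 of histone H3. Whole brains were taken at postnatal day 14 from 3 control mice of the genotype Mphosph8fl/+ Nestin-Cre+ and from 3 mice of the genotype Mphosph8fl/fl Nestin-Cre+, labelled Mphosph8∆n and called mutant here, all on the C57BL/6J background. Each library came from a separate brain. Both groups carried the Nestin-Cre transgene, which drives the recombinase in neural progenitors and so in neurons and glia derived from them, and no group without it was sequenced. Per the labels the controls had a floxed allele, so they too can lose a copy of the gene, whereas the text of the study describes the controls by the transgene alone. Cerebellar tissue was not isolated, and in bulk RNA fewer cells of a type and less RNA per cell cannot be told apart.

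Purkinje cells are large inhibitory neurons that carry the output of the cerebellar cortex, and they receive their main excitatory input from granule cells. Granule cells arise from progenitors that express the transcription factor Atoh1. These divide in the external layer of the young cerebellum under the influence of sonic hedgehog released by Purkinje cells, and their daughters then leave the cycle and migrate inward. Several of the markers are not restricted to the cerebellum. Calb1 and Itpr1 are found in many forebrain neurons, Zic1 and Zic2 in other parts of the brain and in the meninges, and Barhl1 in parts of the midbrain and diencephalon.

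The promoters are shown because Rora, a nuclear receptor needed for Purkinje cell maturation, and Atoh1 and the Zic factors themselves act on genes of these cells. Windows from 250 bases before to 50 bases after a start site were taken from RefSeq (GRCm38.p6), which held 5 of the 10 members. Capitals mark, on either strand, AGGTCA (the half-site read by Rora), CAGCTG (a form of the E-box read by basic helix-loop-helix factors such as Atoh1) and CAGCAGG (a core read by Zic proteins). No matches overlapped in the windows below.
Pcp2 (chr8:3625498-3625797, minus strand): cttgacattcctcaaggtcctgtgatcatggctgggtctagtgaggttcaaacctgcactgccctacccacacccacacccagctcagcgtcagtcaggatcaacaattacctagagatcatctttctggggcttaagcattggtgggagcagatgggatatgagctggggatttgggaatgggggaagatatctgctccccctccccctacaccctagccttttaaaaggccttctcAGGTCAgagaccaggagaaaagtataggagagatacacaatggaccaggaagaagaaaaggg
Slc1a6 (chr10:78780246-78780545, plus strand): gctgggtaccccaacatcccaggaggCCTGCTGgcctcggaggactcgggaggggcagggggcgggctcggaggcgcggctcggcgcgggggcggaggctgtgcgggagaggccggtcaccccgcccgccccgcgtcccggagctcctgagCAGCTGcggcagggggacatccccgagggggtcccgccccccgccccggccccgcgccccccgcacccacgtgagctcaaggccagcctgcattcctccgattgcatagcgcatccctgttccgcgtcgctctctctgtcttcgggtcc
Barhl1 (chr2:28916619-28916918, minus strand): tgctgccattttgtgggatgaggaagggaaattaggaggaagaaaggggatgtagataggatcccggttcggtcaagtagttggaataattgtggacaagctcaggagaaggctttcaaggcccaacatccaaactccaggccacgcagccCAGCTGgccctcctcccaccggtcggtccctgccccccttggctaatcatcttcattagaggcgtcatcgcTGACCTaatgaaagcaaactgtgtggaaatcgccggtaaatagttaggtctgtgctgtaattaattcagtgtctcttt
Atoh1 (chr6:64728875-64729174, plus strand): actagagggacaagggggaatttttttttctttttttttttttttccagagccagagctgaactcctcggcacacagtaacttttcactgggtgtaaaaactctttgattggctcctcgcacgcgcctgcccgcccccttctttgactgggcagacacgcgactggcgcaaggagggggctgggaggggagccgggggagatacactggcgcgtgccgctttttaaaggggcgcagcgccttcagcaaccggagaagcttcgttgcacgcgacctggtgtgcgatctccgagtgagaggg

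In the Pcp2 window AGGTCA began at position -12, with the start site at 0. In the Barhl1 window the E-box began at -99 and the half-site, on the opposite strand, at -28. In the Slc1a6 window the E-box also began at -99 and the Zic core, on the opposite strand, at -224. Pcp2 had 4 windows and Barhl1 had 2, of which 1 each is shown. In those not shown, AGGTCA began at -87 in 1 Pcp2 window (the same bases as in the window shown) and at -26 in another, and CAGCTG at -15 in that of Barhl1. The Atoh1 window held none of these letters, nor did the window of Zic1. Among all 32851 windows of this length, 16.3% held AGGTCA, 16.3% held CAGCTG and 10.5% held CAGCAGG. These matches are letters in a window and were not tested as binding sites.

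The libraries held from 12956880 to 15223424 counts, and levels are given as CPM, counts scaled to a common size by the TMM-adjusted library total. Mphosph8 was at 55.8, 48.6 and 70.7 CPM in control replicates 1 to 3 and at 33.1, 27.2 and 26.5 CPM in mutant replicates 1 to 3, which follows the labels (log2 fold change -1.02 ± 0.12 SE, edgeR adjusted p 0.000157). Control replicate 3 had 1338 counts of the Y-linked gene Ddx3y and 27 of Xist, whereas the other 5 libraries had 0 of Ddx3y and at least 11130 of Xist. By these counts control replicate 3 was male and the other 5 libraries female. Sex was thus not balanced between the groups, and it was not a term of the fits. Hindbrain Hox genes, which are transcribed in the medulla and not in the cerebellum, stood apart in mutant replicate 3. Their 11 tested genes summed to 7.56 CPM there, against 21.8 and 23.0 CPM in the other mutants and 23.4 to 26.3 CPM in the controls.

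For none of the 9 tested Purkinje and granule cell genes was the difference in means between mutant and control brains larger than the larger SD of the groups. Of these 9, 0 were higher and 0 lower at an adjusted p under 0.05 in edgeR, DESeq2 and limma-voom alike, and 0 reached an unadjusted p under 0.05 in edgeR. Among all 16731 genes tested, 0.628% passed the adjusted threshold, 0.359% also had a fold change over 2, and 6.51% had an unadjusted p under 0.05. Shares of this size give fewer than 1 gene in a set of 9. Mutant and control values overlapped for all 10 members, while all mutant libraries lay below all control libraries for 5.42% of the genes tested and above them for 6.23%. The median size of the log2 fold change, taken without its sign, was 0.087 for the members and 0.09 for all genes tested.

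**Figure D1:**
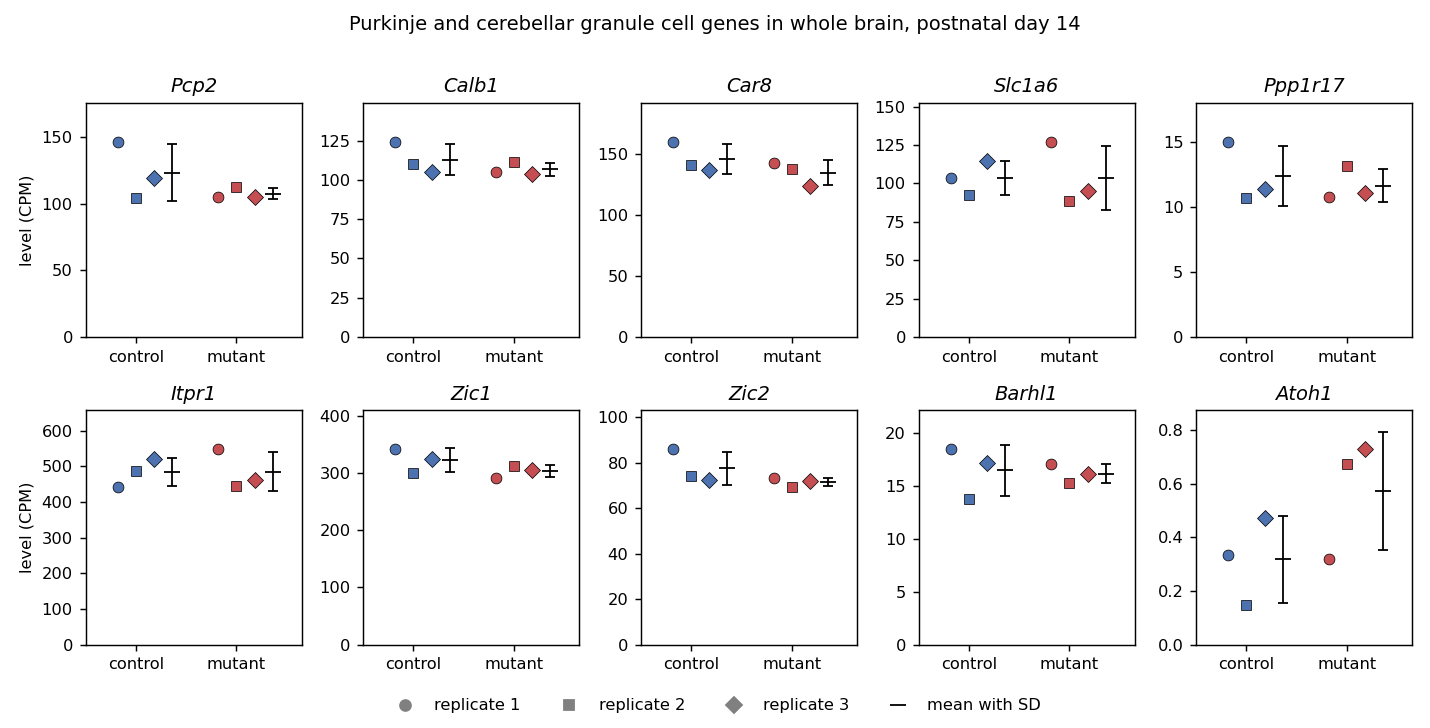
Level of each gene in each library, in CPM on axes that start at 0, for control (blue) and mutant (red) brains, with the mean and SD of 3 libraries beside the points. The groups overlap in every panel, and in 7 of the 9 tested genes the highest point is control replicate 1.

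Among the Purkinje cell genes, Pcp2 (ENSMUSG00000004630, chromosome 8, 3623371 to 3625545, minus strand) had the largest difference. It encodes a modulator of G protein signalling that is nearly restricted to Purkinje cells and retinal bipolar cells. Its level was 146, 104 and 119 CPM in control replicates 1 to 3 and 105, 112 and 105 CPM in mutant replicates 1 to 3. The mutants lay close together, and control replicate 2 was the lowest library of all. Group means were 123 ± 21.3 and 107 ± 4.33 CPM (SD, n = 3), and the difference on the log2 scale was -0.20 ± 0.10 (SE; edgeR, adjusted p 0.804). The 95% interval ran from -0.41 to 0.02, or 0.752 to 1.01 times the control level. Without control replicate 1 the log2 fold change was -0.06, and without control replicate 2 it was -0.31, with an edgeR adjusted p no lower than 0.532 in any alternative. Of the 1828 exonic bases of Pcp2, 941 lie opposite exons of Pet100 on the other strand, and the strand setting of the counting is not given in the sources used here.

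Calb1 (ENSMUSG00000028222, chromosome 4, 15881264 to 15908064), which encodes the calcium buffer calbindin, was at 124, 110 and 105 CPM in the controls and at 105, 112 and 104 CPM in the mutants. Apart from control replicate 1, the libraries fell within a narrow range. Mutants differed from controls by -0.08 ± 0.08 on the log2 scale (SE, edgeR adjusted p 0.945), with a 95% interval of 0.838 to 1.07 times the control level. Without control replicate 1 the difference was -0.009, and without control replicate 3 it was -0.13.

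Itpr1 (ENSMUSG00000030102, chromosome 6, 108213096 to 108551109) encodes the inositol trisphosphate receptor that releases calcium from the endoplasmic reticulum, and Car8 (ENSMUSG00000041261, chromosome 4, 8143362 to 8239041) a carbonic anhydrase-related protein that binds this receptor. Itpr1 was at 442, 488 and 521 CPM in the controls and at 548, 445 and 462 CPM in the mutants. Its highest library was mutant replicate 1 and its lowest control replicate 1. The difference in log2 level was 0.004 ± 0.10 (SE, edgeR adjusted p 0.998), with a 95% interval of 0.868 to 1.16 times the control level. Car8 was at 160, 141 and 137 CPM in the controls and at 143, 137 and 123 CPM in the mutants. Here control replicate 1 was highest and mutant replicate 3 lowest. Its log2 fold change was -0.12 ± 0.09 (SE, edgeR adjusted p 0.912), with an interval of 0.814 to 1.04 times the control level. It was -0.05 without control replicate 1 and -0.06 without mutant replicate 3.

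Slc1a6 (ENSMUSG00000005357, chromosome 10, 78780496 to 78814765) encodes EAAT4, a glutamate transporter of Purkinje cell dendrites. It was at 103, 92.1 and 114 CPM in the controls and at 127, 88.3 and 95.1 CPM in the mutants, so that the highest and the lowest library were both mutants. The spread among the mutants, 103 ± 20.6 CPM, was the widest of the tested members relative to its mean, at 20.0%. Between the groups the log2 fold change was 0.002 ± 0.11 (SE, edgeR adjusted p 0.998), with an interval of 0.847 to 1.18 times the control level, and without 1 library it ran from -0.17 (mutant replicate 1) to 0.10 (mutant replicate 2).

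Ppp1r17 (ENSMUSG00000002930, chromosome 6, 56017497 to 56032689) encodes G-substrate, a protein phosphatase inhibitor that is phosphorylated by cyclic GMP-dependent kinase. It was the least abundant Purkinje cell gene, at 15.0, 10.7 and 11.4 CPM in the controls and 10.8, 13.1 and 11.1 CPM in the mutants. Its log2 fold change was -0.09 ± 0.14 (SE, edgeR adjusted p 0.977), with the interval from 0.762 to 1.16 times the control level. It changed sign without control replicate 1, to 0.08.

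Of the granule cell genes, Zic1 (ENSMUSG00000032368, chromosome 9, 91358058 to 91365810) and Zic2 (ENSMUSG00000061524, chromosome 14, 122475435 to 122479852) encode related zinc finger factors that are kept on in granule cells as they mature. Zic1 was at 341, 299.7 and 325 CPM in the controls and at 292, 312 and 306 CPM in the mutants. It varied least of the tested members, with the highest library 1.17 times the lowest. The difference in log2 level was -0.09 ± 0.08 (SE, edgeR adjusted p 0.941), with an interval of 0.834 to 1.06 times the control level. It was -0.04 without control replicate 1 and -0.14 without control replicate 2. Zic2 was at 85.8, 74.3 and 72.3 CPM in the controls and at 73.1, 69.5 and 72.1 CPM in the mutants. The difference in means came with 1 high control library, replicate 1. The log2 fold change was -0.11 ± 0.08 (SE, edgeR adjusted p 0.912), with an interval of 0.818 to 1.04 times the control level, and it was -0.04 without control replicate 1. Neither gene shared a 50-base word with the transcript sequence of another annotated gene, read on the transcript strand. Of the members, only Car8 and Ppp1r17 did, with 3 of 3804 and 5 of 1708 words. The genes that share words with Ppp1r17 include the protocadherin gene Pcdhb14. Without a known strand setting, reads from the 60 exonic bases of Zic1 that lie opposite Zic4 cannot be assigned.

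Barhl1 (ENSMUSG00000026805, chromosome 2, 28907679 to 28916668, minus strand) encodes a homeodomain factor that acts after Atoh1 in granule cell progenitors. It was at 18.4, 13.8 and 17.1 CPM in the controls and at 17.0, 15.2 and 16.1 CPM in the mutants, and the mutants lay within the range of the controls. The log2 fold change was -0.03 ± 0.12 (SE, edgeR adjusted p 0.990), with an interval of 0.818 to 1.17 times the control level. It became positive, at 0.06, without control replicate 1, and was at 0.005 without mutant replicate 2.

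Atoh1 (ENSMUSG00000073043, chromosome 6, 64729125 to 64731245, plus strand) was the only member with a single exon. It was close to the limit of detection, with 5, 2 and 7 counts in control replicates 1 to 3 and 4, 9 and 10 counts in mutant replicates 1 to 3. The groups overlapped, because mutant replicate 1 lay below 2 of the controls. Over the groups this was 14 and 23 counts, a ratio of 1.80 for mutant to control with a 95% interval of 0.889 to 3.79 that covers counting error only. In the fit with no filter on low counts, the difference was 0.83 ± 0.56 on the log2 scale (SE; edgeR, adjusted p 0.839). No difference in Atoh1 was detected at this depth.

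**Figure D2:**
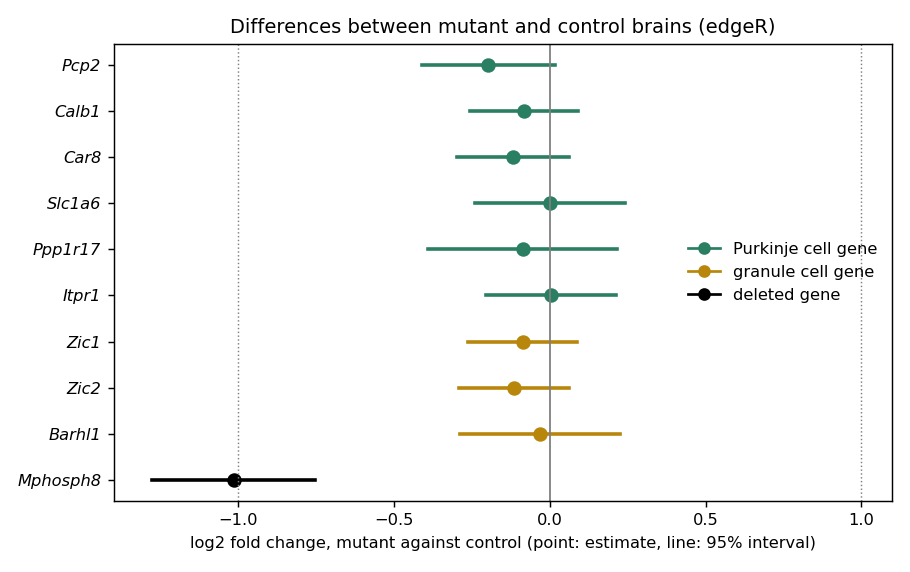
Log2 fold change of mutant against control brains for the 9 tested genes and for Mphosph8, with points as edgeR estimates, lines as 95% intervals and dotted lines at a 2-fold difference. All 9 intervals include 0 and none reaches either dotted line, while the interval of Mphosph8 lies below 0.

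Levels of different genes were compared per kilobase of annotated exon, over all 6 libraries. Pcp2 led at 63.1 ± 8.88 CPM per kb (SD, n = 6), followed by Zic1 at 54.9 ± 3.16, Slc1a6 at 48.0 ± 6.89 and Car8 at 36.4 ± 3.05 CPM per kb. Each of these overlapped its neighbour in the order across libraries. Car8 did not overlap the next group, in which Itpr1 at 26.4 ± 2.34, Zic2 at 25.9 ± 2.00 and Calb1 at 22.7 ± 1.59 CPM per kb overlapped in turn. Ppp1r17 at 6.84 ± 0.982, Barhl1 at 4.17 ± 0.418 and Atoh1 at 0.210 ± 0.105 CPM per kb were each separated from the gene above. Exonic lengths are the union of annotated transcripts of a gene, such as 13 for Itpr1 (18319 bases), 7 for Pcp2 and 5 for Barhl1. The level per kb of such genes is a low estimate, and the order rests on these lengths. Pcp2 was above 96.7% and Atoh1 above 1.5% of the genes tested on this scale.

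The highest library was not the same for every gene of the list. For each tested gene, the log2 CPM of a library was set against the mean of that gene over the 6 libraries. Control replicate 1 was the highest library for 7 of the 9 genes, from 0.13 above the mean for Zic1 to 0.35 for Pcp2 and 0.33 for Ppp1r17. The other 2 genes, Slc1a6 and Itpr1, were highest in mutant replicate 1, at 0.31 and 0.18 above their means. In control replicate 1 Slc1a6 was at 0.01 and Itpr1 at -0.13. The cause of this split was not tested.

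**Figure D3:**
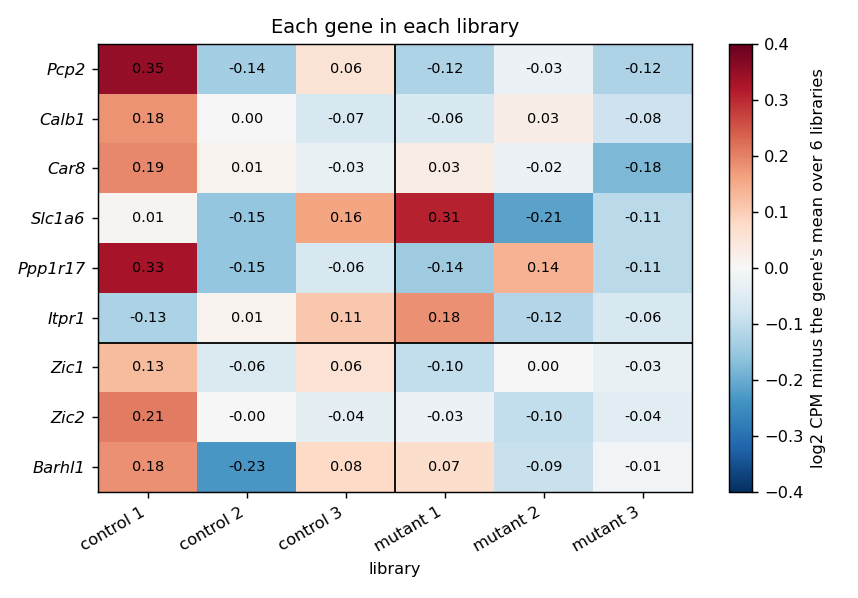
Log2 CPM of each tested gene in each library minus the mean of that gene over the 6 libraries, with red for higher and blue for lower values and the number printed in each cell. Control replicate 1 holds the highest value of the row for 7 of the 9 genes, and Slc1a6 and Itpr1 are instead highest in mutant replicate 1.

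As a group, the 6 Purkinje cell genes had a median log2 fold change of -0.09 and the 3 tested granule cell genes of -0.09, against -0.01 for all genes tested. Negative values were found in 4 of the 6 and 3 of the 3, where 52.4% of all genes tested were negative. Without control replicate 1 both medians moved nearer to 0, to -0.03 and -0.04. The members share libraries and are not independent of each other. In the lists below, 8 of 12 other Purkinje cell genes and 3 of 14 glutamate and calcium signalling genes were negative. The same held for 8 of 11 mature granule cell genes and 7 of 12 hedgehog and progenitor genes.

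Whole brains were used, so the lists below also count RNA of any other cells that express their genes. Other genes listed for Purkinje and granule cells were read from further lists. Their medians lay close to 0, and without 1 library they ran from -0.04 to 0.03 for the other Purkinje cell genes, from -0.09 to 0.01 for mature granule cell genes and from -0.07 to 0.02 for the hedgehog and progenitor list. Of 12 more Purkinje cell genes, 0 were higher and 0 lower at an adjusted p under 0.05 in edgeR, and their median log2 fold change was -0.02. Aldoc, the enzyme aldolase C that is found in stripes of Purkinje cells and in astrocytes, had 1268 ± 184 CPM in controls against 1456 ± 98.0 CPM in mutants (mean ± SD, n = 3), with 0.20 ± 0.11 (SE, edgeR adjusted p 0.866). Dner, a Notch ligand by which Purkinje cells act on Bergmann glia, was at -0.01 ± 0.09 and Rgs8, a regulator of G protein signalling, at -0.002 ± 0.08. Rora itself was at 0.09 ± 0.07 (edgeR, adjusted p 0.927). An unadjusted p under 0.05 was reached by Gng13, a G protein gamma subunit named here after its value was seen, at -0.25 ± 0.12 (edgeR, adjusted p 0.759). Of its 773 exonic bases, 399 lie opposite exons of Chtf18. Over all genes tested, 2.41% were lower and 4.09% higher at that unadjusted limit.

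The pathway that links glutamate to calcium release in Purkinje cells runs through the G protein subunit Gnaq and the phospholipase Plcb4 to Itpr1. Of its 14 other listed genes, 0 passed the adjusted threshold in edgeR and 0 an unadjusted p under 0.05, with log2 fold changes from -0.07 to 0.14 and a median of 0.05. The most abundant were the calcium pumps Atp2a2 and Atp2b2, at -0.07 ± 0.10 and -0.04 ± 0.09 (SE), and the channel subunit Cacna1a at 0.06 ± 0.08. Upstream of Itpr1, Gnaq was at 0.13 ± 0.09 and Plcb4 at 0.01 ± 0.08, both named for their place in the pathway. Over this list, mutant replicate 1 was again the highest library, at 0.11 above the mean.

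Of 11 genes listed for mature granule cells, 0 passed the adjusted threshold and 0 an unadjusted p under 0.05 in edgeR. Their median log2 fold change in whole brain was -0.03. The vesicular glutamate transporter Slc17a7 had 806 ± 27.0 CPM in controls against 774 ± 74.9 CPM in mutants (mean ± SD, n = 3), with -0.06 ± 0.10 (SE). Cbln1, a secreted organiser of the synapse between granule and Purkinje cells, was at -0.03 ± 0.09, and its relative Cbln3 at 0.15 ± 0.09 (edgeR adjusted p 0.866). Control replicate 1 was the highest library over this list as well, at 0.10 above the mean, followed by mutant replicate 1 at 0.06.

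The list of the sonic hedgehog pathway and dividing progenitors held 12 tested genes, with 0 past the adjusted threshold, 0 at an unadjusted p under 0.05 in edgeR, and a median of -0.01. Ccnd2 and Ccnd1, cyclins of dividing progenitors, were at 0.04 ± 0.08 and -0.02 ± 0.08 (SE), and the hedgehog receptor Ptch1 at 0.08 ± 0.08. Of 4 listed relatives of the granule cell members, 0 passed either limit in edgeR, and Zic4, Zic5 and Barhl2 were at -0.04 ± 0.09, -0.07 ± 0.11 and -0.21 ± 0.12 (SE). Zic4, which is transcribed from the strand opposite Zic1, was at 37.4 ± 1.02 and 36.3 ± 0.941 CPM (SD, n = 3).

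Genes listed for other cells of the cerebellum were read beside these, again in whole brain and not in the listed cells alone. Of 6 genes listed for Bergmann glia, 0 passed either limit in edgeR. Slc1a3, Ptprz1 and Fabp7 were at 0.12 ± 0.09, 0.13 ± 0.11 and -0.13 ± 0.10 (SE). Of 9 genes listed for other cerebellar neurons, 0 passed the adjusted threshold in edgeR. The most abundant, Lgi2, Pvalb and Kit, were at -0.11 ± 0.09, -0.11 ± 0.13 and -0.03 ± 0.09. Named after their values were seen, Slc6a5 and Eomes were lower and Tfap2b higher at an unadjusted p under 0.05 in edgeR. Over all genes tested, 2.41% were lower and 4.09% higher at that limit. Eomes was at -0.30 ± 0.14 (SE, edgeR adjusted p 0.752) and Tfap2b at 0.27 ± 0.12 (SE, edgeR adjusted p 0.733). Slc6a5, the glycine transporter of Golgi cells and of many brainstem neurons, was at 46.2, 41.6 and 50.7 CPM in the controls and 39.2, 32.5 and 20.7 CPM in the mutants, with -0.59 ± 0.15 (edgeR adjusted p 0.139). In edgeR it passed the threshold with no filter on low counts (adjusted p 1.48e-06) and without mutant replicate 1 (adjusted p 0.00364). It missed the threshold with the replicate block (edgeR adjusted p 0.0507), in DESeq2 (adjusted p 0.99992) and in limma-voom (adjusted p 0.110). Without 1 control replicate the edgeR adjusted p was 0.141 to 0.473. Without mutant replicate 3, the library low in Hox genes, it was at -0.37 (edgeR, adjusted p 0.491).

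**Figure D4:**
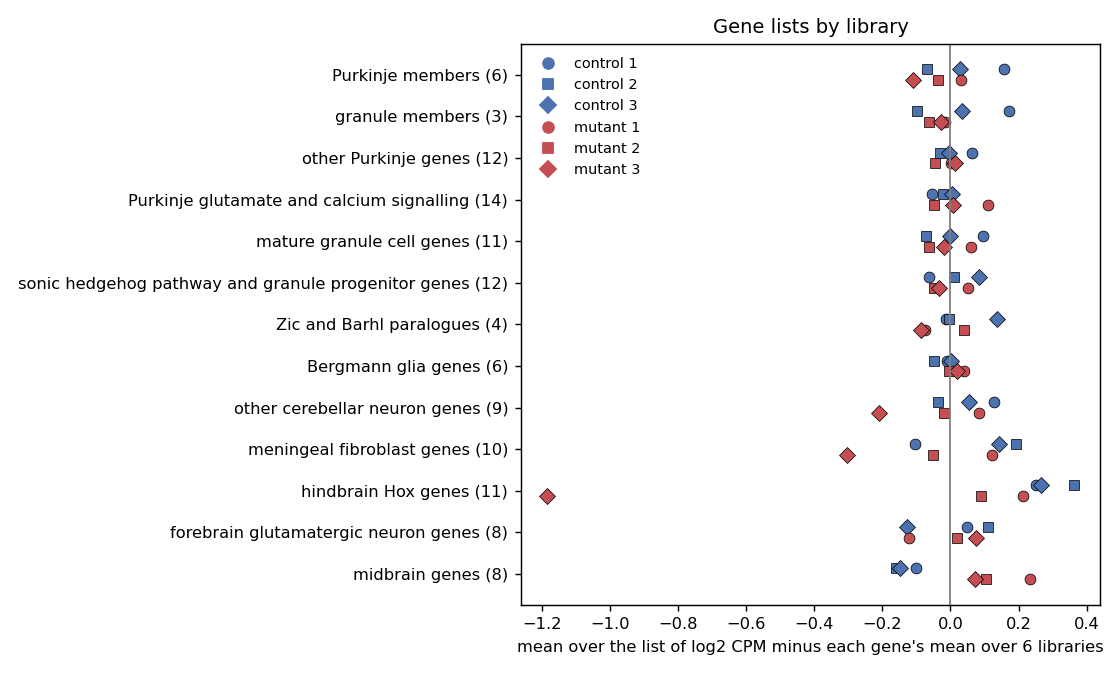
Mean over each gene list of log2 CPM minus the mean of each gene over the 6 libraries, with the number of tested genes in brackets, control libraries in blue and mutant libraries in red. The cerebellar lists stay within 0.21 of 0 in every library, whereas the Hox list of mutant replicate 3 is at -1.18.

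Lists for other regions and for the meninges were read in the same way, since several members are also expressed there. All 11 tested Hox genes had negative log2 fold changes, with a median of -0.56 and 0 past the adjusted threshold in edgeR. The most abundant, Hoxa5, Hoxb5 and Hoxb3, were at -0.46 ± 0.25, -0.59 ± 0.30 and -0.43 ± 0.28 (SE), and Hoxb2, named after its value was seen, had an unadjusted p of 0.0347 in edgeR. Without mutant replicate 3 the median of the Hox genes was -0.20 with 9 of 11 negative. In the same fit the median was -0.05 for the Purkinje cell genes and -0.09 for the granule cell genes.

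Meningeal fibroblast genes were negative in 10 of 10, with a median of -0.16 and 0 past either limit in edgeR. The median was -0.04 with 8 of 10 negative without mutant replicate 3, the library low in Hox genes. It was -0.08 and -0.10 without control replicates 2 and 3, and -0.27 and -0.28 without control replicate 1 and mutant replicate 1. Col1a2, Col1a1 and Col3a1, collagens of these cells, were at -0.09 ± 0.13, -0.08 ± 0.12 and -0.18 ± 0.14 (SE). The list summed to 401 to 476 CPM in the controls and 332 to 507 CPM in the mutants. Control replicate 1, the highest library for Zic1 and Zic2, was at 401 CPM the lowest control for this list. The part of meningeal tissue in their levels was not tested.

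Forebrain glutamatergic neuron genes had a median of -0.05, with 0 of 8 past either limit in edgeR, and Cux2 and Neurod2 were at -0.03 ± 0.08 and -0.08 ± 0.09 (SE). Their median turned positive without control replicate 2, at 0.03, and without mutant replicate 1, at 0.01. Midbrain genes had a median of 0.21, with 0 of 8 past the adjusted threshold in edgeR. This median was 0.36 without control replicate 1, 0.09 without control replicate 3 and 0.14 without mutant replicate 1. En2, which the cerebellum also expresses, Otx2 and Pou4f1 were the most abundant, at -0.11 ± 0.09, -0.01 ± 0.13 and 0.18 ± 0.23. Pax7 and Pou4f2, factors of the dorsal midbrain, were named after their values were seen. Both were higher in all mutants than in any control, at an unadjusted p under 0.05 in edgeR. Over all genes tested, 6.23% had all mutants above all controls and 4.09% were higher at that limit. Counts were low, at 17, 13 and 17 in the controls and 27, 22 and 25 in the mutants for Pax7. Those of Pou4f2 were 3, 10 and 12 against 19, 15 and 15. The log2 fold changes of Pax7 and Pou4f2 were 0.79 ± 0.29 and 1.09 ± 0.42, with adjusted p-values of 0.483 and 0.551 in edgeR. Without control replicate 1 Pou4f2 was at 0.67.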

How the data were processed

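PolyA-selected libraries were sequenced by the authors as single reads. They trimmed the reads with Trim Galore 0.5.0, removed ribosomal, mitochondrial, phiX and adapter sequence with Bowtie2 2.3.4.1, aligned the rest to GRCm38 with STAR and used featureCounts of Subread 1.6.2 for read counting by Ensembl gene. The authors deposited these counts without normalization, 1 file per library. Symbols and exons came from GENCODE M21 (GRCm38), which matched 54495 of 54532 identifiers.

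All genes were fitted together with edgeR 4.0.16 in R 4.3.3 (quasi-likelihood F test, filterByExpr, TMM, genotype as the only term). The Benjamini-Hochberg adjustment ran over all 16731 genes tested, at a threshold of 0.05. SEs were derived from the F statistic. Log2 CPM per library used a prior count of 2. The alternatives were RLE factors, DESeq2 1.42.0, limma-voom (limma 3.58.1), no filter, a minimum of 1 CPM in 3 libraries, leaving out each library in turn, a fold limit of 2 and the replicate number as a block. The medians of lists without each library were added after the data were seen. Depth, from 12956880 to 15223424 counts, limits Atoh1 most. Replicates differed by more than sampling noise (chi-square per degree of freedom 3.42 to 12.3).

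Members and lists were chosen with earlier results of these data known. The genes named were the members, Mphosph8, the 3 most abundant genes of each other list and any gene of a list past the threshold, plus those stated as named after their values were seen or for their place in a pathway. Some genes under this rule are not reported here.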

Additional observations from a re-analysis of the deposited data

How the results depend on the processing

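The number of members past the threshold was 0 under each alternative. Of the other cerebellar lists 0 genes passed, except Slc6a5 with no filter on low counts (1 gene), and the fits without 1 library gave 0 to 1, again Slc6a5, without mutant replicate 1. The medians stayed negative under each alternative, from -0.137 to -0.028 for the Purkinje and -0.144 to -0.035 for the granule cell genes. Signs close to 0 were not stable. Slc1a6 went from 0.002 to -0.001 with DESeq2, -0.01 with limma-voom, -0.001 with no filter, and -0.172 to 0.102 without 1 library. The fits without 1 library gave -0.184 to 0.077 for Ppp1r17, -0.094 to 0.062 for Itpr1 and -0.144 to 0.055 for Barhl1. With the replicate block, Slc1a6 was at -0.009 and 0 members were called. Replicate numbers recur in both groups, and the study describes the brains as those of littermates. Deviations from the group means correlated at 0.10, -0.05 and 0.08 within a number. Correlations between different numbers were not computed, so these values cannot decide whether the numbers are pairs. The block was therefore kept as an alternative only. Over all genes 105 passed the threshold, against 242 of 32278 with no filter, 124 with the replicate block and 66 to 162 without 1 library. The cause of these shifts was not tested.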
